A study of Homo sapiens with 13 samples.

Results

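A stretch of human chromosome 12 that carries lower mRNA levels in R749H cells than in wild-type cells was examined gene by gene. It begins at the stop codon of DTX3 (position 58002935 of build hg19) and ends at that of TBC1D30 (position 65269568), so that it covers 7.27 Mb. All 3’ mRNA isoforms assigned to a gene whose coding sequence ends in this interval were taken as members. This gave 571 isoform end points in 31 genes, of 211765 end points in 14576 genes across all libraries. The segment was chosen on measured values, namely the R749H against wild-type levels of these same genes, so the levels given here describe it. Counts of called genes are printed beside the share of all genes called, and since they come from the same contrast nothing is read from them.

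The 3’ READS method sequences the very end of polyadenylated mRNA, so that each read marks a cleavage and polyadenylation site and the reads of a gene summed over its sites give its steady-state level. The cells were HEK293 Flp-in T-REx, a human embryonic kidney line with a single engineered integration site and a doxycycline-inducible promoter. Each of the 2 derivatives carried an integrated pcDNA5 plasmid for an α-amanitin-resistant Rpb1, the large subunit of RNA polymerase II (Pol II), in the wild-type or the slowly elongating R749H form. The sample titles name an Avitag on Rpb1 in both lines, though the labels do not agree on the tag. In both, expression was induced with doxycycline at 2 µg/ml for 24 hr according to the labels, and endogenous Pol II was then blocked with α-amanitin at 2.5 µg/ml for 42 hr. The paper’s methods give a shorter induction and keep doxycycline during the α-amanitin treatment. There were 5 wild-type and 4 R749H libraries. The endogenous Rpb1 gene was present in both lines, and each Rpb1 form was carried by its own derivative line, so the effect of the mutation and a difference between the 2 lines cannot be told apart. The sources used here do not say whether the derivatives are clones. In such bulk samples fewer cells with a transcript and less RNA per cell cannot be told apart either.

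Between 2479851 and 10135014 reads lay within 5 kb downstream of a stop codon per library, and the segment received 1926 to 9545 of them. R749H replicate 3 stood apart, with 41033 end points, of which 6.60% rested on a lone read. The other 8 libraries had 73112 to 112834 end points, and 30.05% to 36.2% of them rested on a lone read. R749H replicate 1 resembled the wild-type libraries more than the other R749H libraries did, with a median correlation of 0.94 to them against 0.84 to 0.91. POLR2A, the gene for Rpb1, had 84.7 ± 26.2 RPM (scaled reads) in wild-type (SD, n = 5) and 369 ± 115 in R749H (SD, n = 4), and these 3’ ends do not tell the 2 Rpb1 forms apart.

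The protein-coding genes in this stretch have unrelated tasks. CDK4 is a cyclin D-dependent kinase that moves cells through G1, OS9 is a lectin that hands misfolded glycoproteins to degradation in the endoplasmic reticulum, METTL1 methylates tRNA and XPOT exports it from the nucleus, and TBK1 is a kinase of innate immunity. The part that opens the segment is gene-dense, and long intervals with few genes follow. A poly(A) site usually lies shortly downstream of the hexamer AATAAA or its variant ATTAAA, which the cleavage machinery recognises in the RNA.

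The sites through which these genes were measured are shown for the 8 segment genes with most reads, as the 30 bases that end at the most used 3’ end, 5’ to 3’ on the strand of the gene, from build GRCh37 (the coordinates of hg19). Capitals mark the AATAAA nearest the end point, and each of the 8 sites lies in an annotated 3’ UTR.
OS9: tcaggtttctaAATAAAcaactggaccatc
CDK4: gggtccttttttatacaggaaaaacaaaac
MARCHF9: ggggaagggcataaagaatcatttatatgc
TBC1D30: tggcaaAATAAAtattgtggttttatagtg
CTDSP2: ataaaagtgggtttaaaaaacctttccagg
DTX3: aataaaAATAAAgtaaaatatgcaactctt
METTL1: gatcctgggataacatgtatatgtgtacac
XPOT: tatatatataaaAATAAActttacgtagtg
These windows lie at chr12:58115309-58115338 (plus strand, OS9), chr12:58142034-58142063 (minus, CDK4), chr12:58153169-58153198 (plus, MARCHF9), chr12:65269783-65269812 (plus, TBC1D30), chr12:58213712-58213741 (minus, CTDSP2), chr12:58003556-58003585 (plus, DTX3), chr12:58162366-58162395 (minus, METTL1) and chr12:64842432-64842461 (plus, XPOT). The letters AATAAA occur in the 30-base windows of OS9, TBC1D30, DTX3 and XPOT, 18 to 24 bases before the end point, and neither hexamer occurs in the other 4. Of the 24 segment genes with enough reads to be tested, 14 held AATAAA in this window, searched on the sense strand, and 4 held ATTAAA (58.3% and 16.7%). Among the 9495 genes tested in all, the shares were 65.0% and 18.1%.

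As a share of all reads, the segment took 0.0873%, 0.0875%, 0.0733%, 0.0942% and 0.0998% in wild-type replicates 1 to 5. It took 0.0682%, 0.0462%, 0.0525% and 0.0440% in R749H replicates 1 to 4. The groups did not overlap, and R749H replicate 1 was the R749H library nearest to wild-type, 0.0682% (95% Wilson interval 0.0662% to 0.0702%) against the lowest wild-type value of 0.0733% (0.0711% to 0.0755%). The intervals cover counting error only, since reads from amplified libraries are not independent molecules. The means were 0.0884% ± 0.00993 (SD, n = 5) and 0.0527% ± 0.0109 (SD, n = 4), so that R749H held 59.6% of the wild-type share.

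A single gene weighs heavily in this share. OS9 gave 34.7% to 50.1% of the segment’s reads in the wild-type libraries and 49.1% to 58.5% in the R749H libraries. Without OS9 the share was 0.0439% to 0.0570% in wild-type and 0.0224% to 0.0283% in R749H. The groups were then farther apart, with R749H at 50.7% of wild-type. On the same scale, the 50 measured genes that flank the segment (25 on each side) took 0.655% ± 0.0623 of the reads in wild-type (SD, n = 5) and 0.498% ± 0.00879 in R749H (SD, n = 4), which is 76.0%. All these shares are relative to library totals alone. On that scale the median log2 ratio of R749H to wild-type over all genes tested was already -0.38. The log2 ratio was -0.75 for the segment share and -0.40 for the flank share. Genes with many reads weigh most in such shares, so they are not comparable with a median over genes. On the same scale the median log2 ratio of the flank genes was -0.71 before the segment and -0.87 after it.

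**Figure D1:**
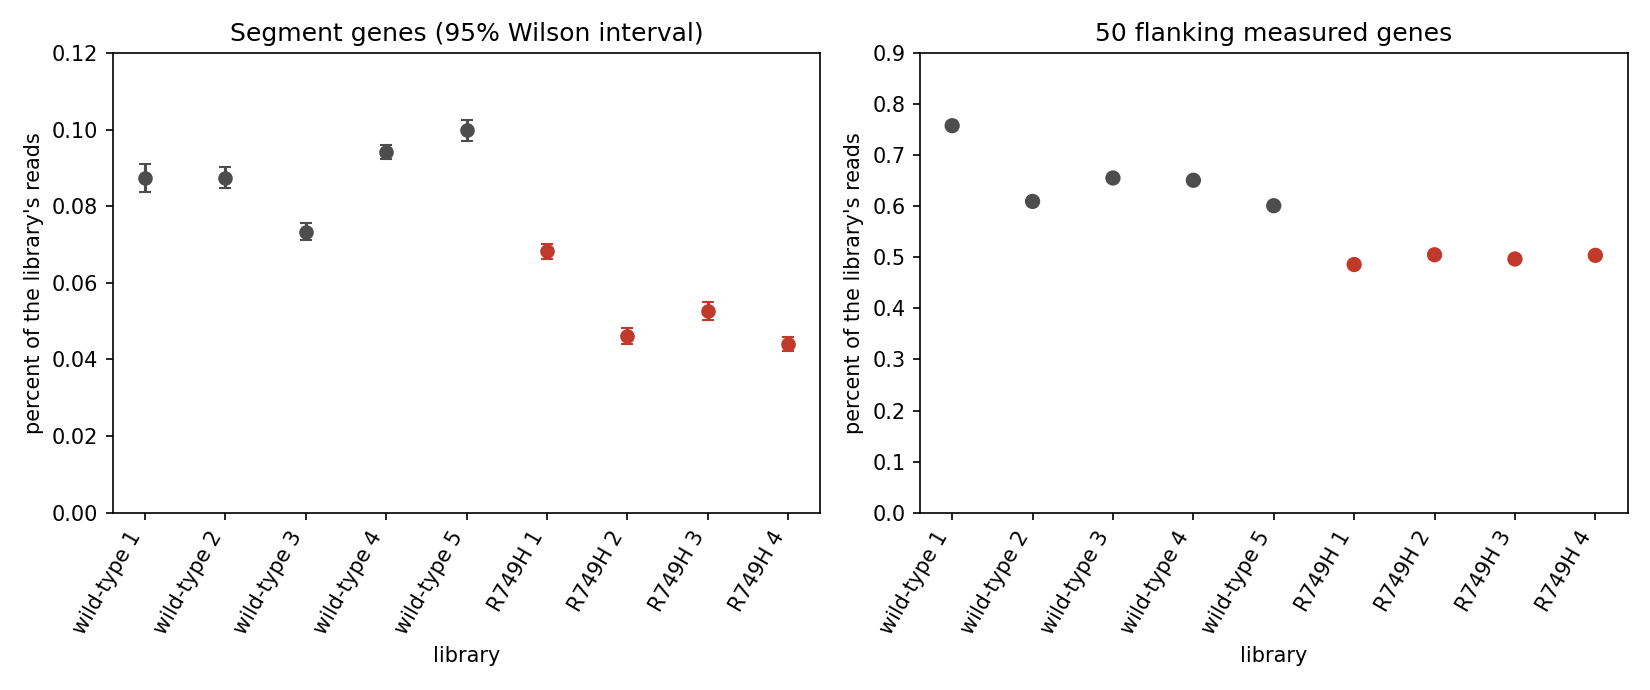
Percent of each library’s reads that fell on the segment genes (left, with 95% Wilson intervals) and on the 50 measured genes around it (right), for 5 wild-type libraries (grey) and 4 R749H libraries (red). In both panels all R749H libraries lie below all wild-type libraries, and R749H replicate 1, at 0.0682%, comes closest for the segment. Shares are relative to library totals alone, on which the median log2 ratio of all genes tested was -0.38.

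Gene levels are given from here on as TMM-scaled RPM, that is, reads relative to the library’s total, with totals adjusted by TMM factors (which assume that most genes keep their level). A gene was tested when it reached a minimum of reads in at least 4 libraries, and 24 of the 31 members were. Of these, 17 passed the minimum in at least 4 libraries of each group. The other 7 (B4GALNT1, AGAP2, TSPAN31, CYP27B1, LRIG3, PPM1H and C12orf66) passed it only through the wild-type libraries, so that a lower level in R749H was favoured among them from the start.

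Over the 24 genes the median log2 ratio of R749H to wild-type levels was -0.87, which is 54.7% of the wild-type level, with quartiles of -1.39 and -0.21. The ratio was negative for 19 genes and positive for 5. The 7 genes that passed through wild-type alone weigh on this median. For the 17 that passed in both groups it was -0.50, and for the 7 it was -1.39. Under the same restriction the median of all genes was 0.04 (7394 genes). Without it, the median was -0.07 over all 9495 genes tested and -0.09 over the 444 genes of chromosome 12 outside the segment and its flanks. All R749H libraries lay below all wild-type libraries for 9 of the 24 genes (7 of the 17). The same held for 10.1% of all genes tested (8.24% of the 7394). None of the 24 lay entirely above, as 9.72% of all genes did. At an adjusted p under 0.05 (limma, Benjamini-Hochberg over all genes), 10 of the 24 (8 of the 17) were called lower. Of all genes 12.9% were called lower (11.4% of the 7394). None of the 24 was called higher, also at an unadjusted p under 0.05 and also by edgeR and DESeq2, beside 10.9% of all genes. These counts restate the contrast on which the segment was picked.

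**Figure D2:**
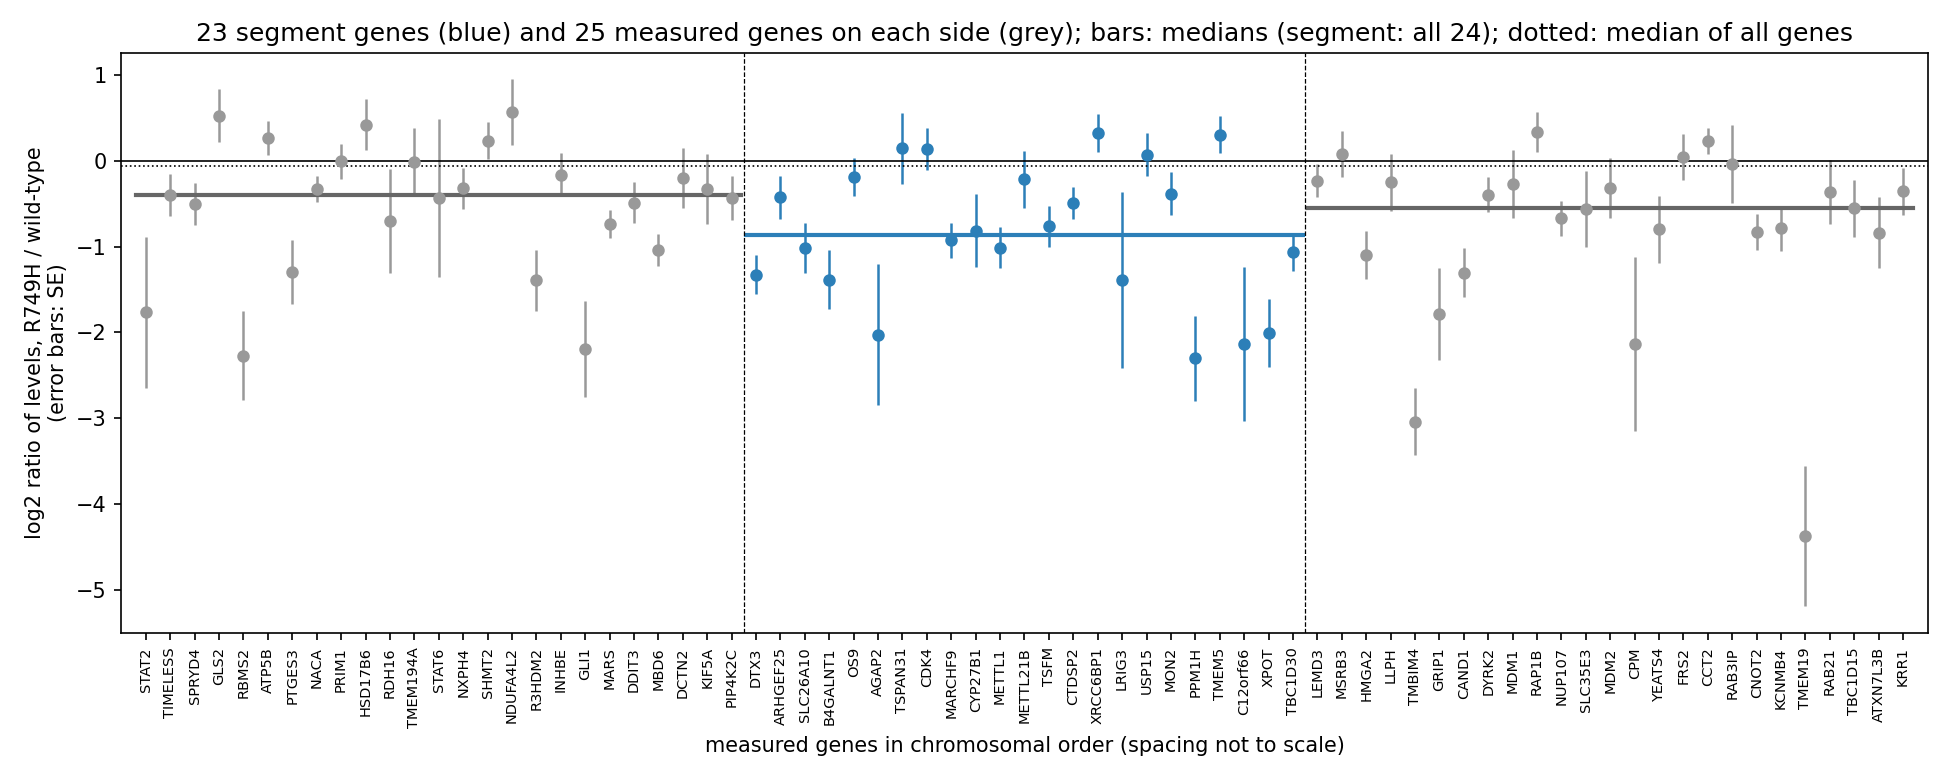
Log2 ratio of R749H to wild-type levels (points, with SE) for 23 of the 24 tested segment genes (blue) and the 25 measured genes on each side (grey), in chromosomal order and without distances. The blue median bar of all 24, at -0.87, lies below the grey bars at -0.40 and -0.55. RBMS2 (-2.27), TMBIM4 (-3.04) and TMEM19 (-4.38) in the flanks lie close to or below the lowest segment gene, PPM1H (-2.30). All of these named genes passed the minimum of reads only through wild-type, which favours low ratios.

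The difference was present in each R749H library. Relative to the wild-type mean of each gene, the median over segment genes was -0.52, -0.85, -0.98 and -0.86 in R749H replicates 1 to 4. In the wild-type libraries it ran from -0.04 to 0.13. R749H replicate 1 again had the smallest departure, and no R749H library reached the wild-type range. In the 25 genes before the segment the R749H medians ran from -0.66 to -0.20 and the wild-type medians from -0.10 to 0.19. In the 25 genes after it they ran from -0.61 to -0.15 and from -0.18 to 0.42, with R749H replicate 3 inside the wild-type range. Over all genes tested the same medians were -0.04 to 0.03 in all 9 libraries.

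**Figure D3:**
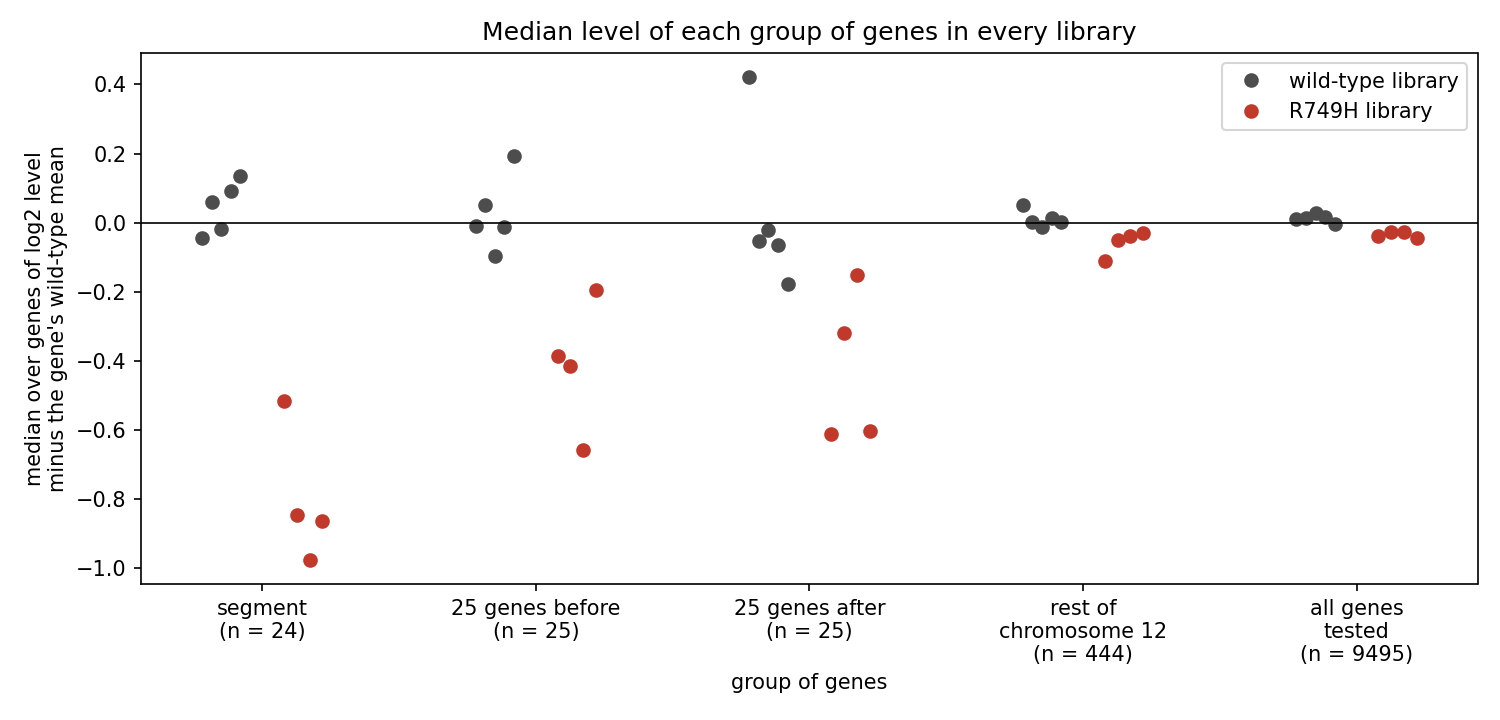
Median over genes of the log2 level minus the gene’s wild-type mean, for each wild-type library (grey) and R749H library (red) and for 5 groups of genes. Segment medians of the R749H libraries run from -0.98 to -0.52, while those over all genes tested stay within -0.04 and 0.03.

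Of the genes for ubiquitin transfer and protein quality control, DTX3 and MARCHF9 were lower in R749H and OS9 and USP15 were not separated. DTX3, an E3 ubiquitin ligase and the first gene of the segment, stood at 25.3, 37.3, 30.4, 31.2 and 42.3 RPM in wild-type and at 17.3, 9.89, 10.7 and 15.7 in R749H. The groups did not overlap, and the log2 ratio was -1.33 (SE 0.23). MARCHF9 (formerly MARCH9), a membrane-bound ubiquitin ligase, stood at 63.8, 62.0, 74.6, 67.5 and 42.4 in wild-type and at 40.1, 32.7, 25.9 and 31.2 in R749H. Wild-type replicate 5 came within a few RPM of R749H replicate 1, without overlap, and the log2 ratio was -0.93 (SE 0.20).

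OS9, the most abundant member, had 241, 400, 278, 408 and 465 RPM in wild-type and 451, 270, 266 and 267 in R749H. R749H replicate 1 lay among the highest wild-type libraries, the other 3 R749H libraries lay between the 2 lowest wild-type libraries, and the log2 ratio was -0.19 (SE 0.22). USP15, a deubiquitinating enzyme, had 6.09, 6.70, 8.83, 6.57 and 7.71 in wild-type and 6.45, 7.41, 7.21 and 9.01 in R749H. The USP15 values of the 2 groups were interleaved, at a log2 ratio of 0.07 (SE 0.25). Over these 4 genes the median log2 ratio was -0.56, and 2 were called lower, beside 12.9% of all genes.

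All 4 genes for tRNA handling and translation had negative ratios, with a median of -0.89. Of these, 3 were called lower, beside 12.9% of all genes. The levels of these genes helped to choose the segment, so nothing is read from the count. METTL1, the catalytic subunit of a tRNA m7G methyltransferase, stood at 26.9, 27.4, 21.8, 26.0 and 30.2 RPM in wild-type and at 19.5, 8.51, 12.8 and 13.4 in R749H. Its groups did not overlap, R749H replicate 1 was again the nearest to wild-type, and the log2 ratio was -1.01 (SE 0.24). TSFM, the mitochondrial elongation factor Ts, had 14.4, 10.0, 11.1, 11.4 and 9.47 in wild-type and 6.80, 5.77, 7.21 and 6.47 in R749H. Every R749H library was lower, and the spread among them was small (6.56 ± 0.61, SD, n = 4), at a log2 ratio of -0.76 (SE 0.24).

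XPOT, which carries tRNA out of the nucleus, had 80.2, 19.5, 27.6, 19.5 and 17.2 RPM in wild-type and 8.37, 5.77, 10.4 and 3.93 in R749H. Wild-type replicate 1 stood far above the other 4, which were still all above the R749H libraries. The log2 ratio was -2.01 (SE 0.39), and it was -1.62 without wild-type replicate 1. METTL21B (now EEF1AKMT3), which methylates the translation elongation factor eEF1A, ran from 4.21 to 6.54 in wild-type and from 2.96 to 7.41 in R749H, so that its groups overlapped (log2 ratio -0.22, SE 0.33).

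The kinases, phosphatases and regulators of small G proteins formed the largest of these role groups, with 9 genes in the files and 6 tested. CDK4 had 40.4, 52.3, 30.7, 64.1 and 82.6 RPM in wild-type and 54.7, 53.0, 56.6 and 60.3 in R749H. The R749H values lay in the middle of the wild-type range, and the log2 ratio was 0.14 (SE 0.24). With reads scaled by library totals alone this ratio turned to -0.18.

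CTDSP2, a phosphatase of the Pol II carboxy-terminal domain family, had 28.9, 38.5, 45.3, 39.4 and 43.0 in wild-type and 28.9, 25.8, 28.0 and 26.6 in R749H. The groups met only where wild-type replicate 1 (28.87) fell below R749H replicate 1 (28.94), and the log2 ratio was -0.50 (SE 0.19). ARHGEF25, a guanine nucleotide exchange factor and the second gene of the segment, had 11.5, 17.8, 19.3, 19.4 and 19.8 in wild-type and 19.9, 9.89, 11.2 and 12.2 in R749H. R749H replicate 1 was the highest of all 9 libraries and wild-type replicate 1 lay among the other R749H libraries, at a log2 ratio of -0.42 (SE 0.25).

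TBC1D30, a Rab GTPase-activating protein gene and the last of the segment, had 45.5, 56.7, 41.7, 60.3 and 62.9 RPM in wild-type and 24.8, 21.4, 20.6 and 36.7 in R749H. Its groups did not overlap, and R749H replicate 4, not replicate 1, was here the nearest to wild-type (log2 ratio -1.07, SE 0.21). PPM1H, a protein phosphatase that acts on phosphorylated Rab proteins, ran from 3.51 to 11.2 in wild-type and from 0.46 to 2.67 in R749H, without overlap, and had the lowest ratio of the segment at -2.30 (SE 0.50). AGAP2, a GTPase-activating protein for Arf proteins, ran from 1.60 to 5.72 and from 0 to 3.57 and overlapped. Of the 6 tested genes of this group, 2 were called lower, TBC1D30 and PPM1H, beside 12.9% of all genes. PPM1H and AGAP2 passed the minimum only through wild-type, and the median log2 ratio was -0.78 with them and -0.46 over the other 4.

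In the group of glycan and Golgi genes, the ratios ran in both directions. TMEM5 (now RXYLT1), a glycosyltransferase of α-dystroglycan, had 17.6, 17.2, 13.7, 18.5 and 15.8 RPM in wild-type and 24.1, 19.8, 24.0 and 15.02 in R749H. In 3 of 4 R749H libraries it was above every wild-type library, at a log2 ratio of 0.30 (SE 0.21).

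MON2, a regulator of endosome-to-Golgi traffic, had 11.2, 11.7, 12.1, 11.3 and 8.94 RPM in wild-type and 8.72, 7.41, 12.01 and 6.47 in R749H. R749H replicate 3 was at the wild-type level and the other 3 were below all wild-type libraries, with a log2 ratio of -0.38 (SE 0.25). B4GALNT1, a ganglioside synthase, ran from 4.49 to 8.76 in wild-type and from 1.85 to 4.36 in R749H, so that its groups were narrowly apart (log2 ratio -1.39, SE 0.34). DPY19L2 was not tested. Of TMEM5, MON2 and B4GALNT1, 1 was called lower, B4GALNT1, beside 12.9% of all genes.

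Among the genes for membrane proteins, SLC26A10, of an anion transporter family, ran from 7.76 to 8.59 RPM in wild-type and from 2.54 to 6.10 in R749H, without overlap (log2 ratio -1.01, SE 0.29). A single 3’ end position in the segment was given to genes on both strands, those of SLC26A10 and B4GALNT1, which face each other. LRIG3 ran from 0 to 4.49 and from 0.27 to 0.69, with wild-type replicate 5 at 0. TSPAN31, whose 3’ end meets that of CDK4 on the other strand, ran from 1.92 to 3.86 in wild-type and from 2.08 to 5.34 in R749H (log2 ratio 0.14, SE 0.42). The ratios of the 3 tested genes had a median of -1.01 and 1 was called lower, beside 12.9% of all genes.

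Of the remaining genes, XRCC6BP1 (now ATP23), a mitochondrial metalloprotease gene, had 9.30, 14.2, 11.8, 17.0 and 13.5 RPM in wild-type and 15.9, 17.6, 16.02 and 15.5 in R749H. It had the highest ratio of the segment, 0.33 (SE 0.22), and the R749H values were close together within the upper part of the wild-type range and just above it. CYP27B1, which makes the active form of vitamin D, ran from 2.62 to 4.17 and from 1.16 to 4.12, with a log2 ratio of -0.82 (SE 0.43). C12orf66 (now KICS2), a subunit of a complex that recruits the amino-acid sensing machinery to lysosomes, ran from 0.49 to 2.56 and from 0 to 0.70, with a log2 ratio of -2.14 (SE 0.90). None of these 3 was called in either direction.

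**Figure D4:**
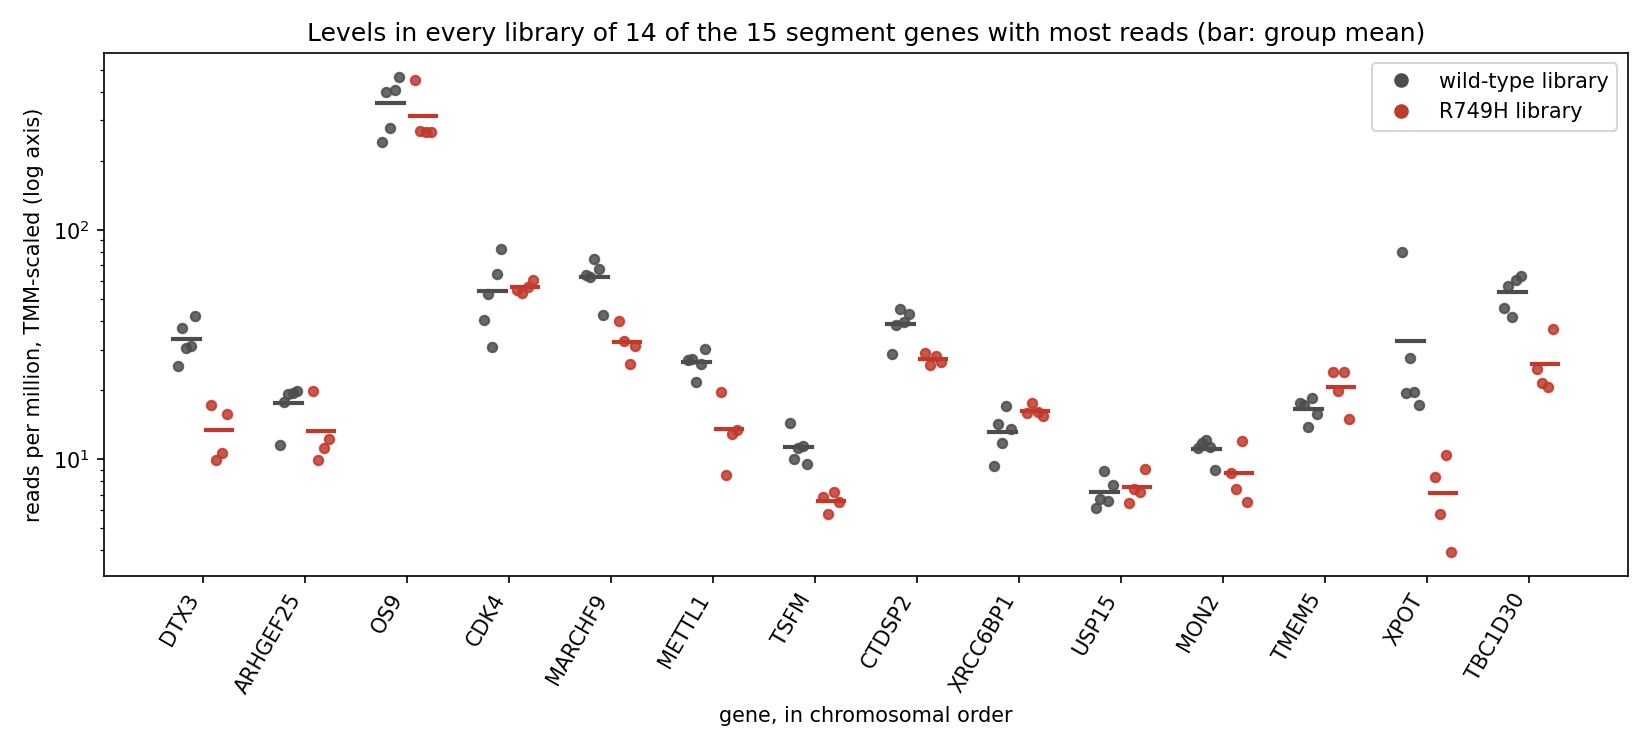
TMM-scaled RPM (log axis) in every wild-type library (grey) and R749H library (red) for 14 of the 15 segment genes with most reads, in chromosomal order, with a bar at each group mean. DTX3, MARCHF9, METTL1, TSFM, XPOT and TBC1D30 show no overlap between the groups, while CDK4, USP15, XRCC6BP1 and TMEM5 have ratios of 0.07 to 0.33.

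The 7 members that were not tested had 1 to 50 reads over all 9 libraries. TBK1 had 7, 5, 2, 17 and 6 reads in wild-type and 7, 2, 0 and 4 in R749H. RASSF3, of a family of Ras association domain proteins, had 4, 8, 14, 11 and 5 reads in wild-type and 2, 1, 3 and 1 in R749H. SLC16A7, a monocarboxylate transporter, had no read in any wild-type library and 1, 3, 6 and 1 reads in R749H. The other 4, AVIL, FAM19A2, DPY19L2 and SRGAP1, had between 0 and 5 reads in each library. At such counts these genes stayed below the minimum for a test, and with no minimum SLC16A7 was called higher by limma.

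Negative ratios occurred from the start to the end of the segment. The 15 tested genes from DTX3 to XRCC6BP1 lie before the first interval of over 500 kb without a measured stop codon, and their median log2 ratio was -0.76. The 9 genes from LRIG3 to TBC1D30 had a median of -1.39, and 3 of them lay without overlap below wild-type, against 6 of the first 15. The 12 members with most reads had a median of -0.71 and the other 12 one of -0.91. All 7 genes that passed only through wild-type are among these other 12, and 3 of them are among the last 9. Over genes that passed in both groups the medians were -0.50 (11 genes) and -0.72 (6 genes) along the segment, and -0.71 (12 genes) and -0.38 (5 genes) by reads, so that the order by reads turned around. These splits were made after the values were seen and were not tested.

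The edges were not sharp. The last 2 measured genes before the segment were KIF5A, a neuronal kinesin heavy chain gene, and PIP4K2C, a phosphatidylinositol phosphate kinase gene. KIF5A had 3.85, 5.44, 3.76, 4.75 and 6.49 RPM in wild-type and 7.15, 1.92, 6.14 and 2.31 in R749H, so that the R749H values surrounded those of wild-type (log2 ratio -0.33). PIP4K2C had 8.98, 15.3, 12.6, 14.1 and 19.3 in wild-type and 9.42, 9.61, 13.3 and 8.55 in R749H, at a log2 ratio of -0.43, close to the -0.42 of ARHGEF25 inside the segment.

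The first 2 measured genes after the segment were LEMD3, an inner nuclear membrane protein gene, and MSRB3, a methionine sulfoxide reductase gene. LEMD3 had 23.1, 29.9, 28.3, 28.5 and 24.4 RPM in wild-type and 21.3, 25.3, 26.4 and 18.7 in R749H. MSRB3 had 5.13, 6.49, 5.23, 5.66 and 7.36 in wild-type and 5.40, 7.69, 6.94 and 5.32 in R749H. Both overlapped, at log2 ratios of -0.23 and 0.08, whereas TBC1D30, the last gene inside, had -1.07.

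Levels in R749H were also lower for most measured genes of both flanks. The 25 measured genes before the segment, from STAT2 to PIP4K2C, had a median log2 ratio of -0.40 and 20 negative ratios. Their lowest ratio was that of RBMS2, an RNA-binding protein gene (5.74 ± 1.06 RPM in wild-type and 1.43 ± 1.12 in R749H, SD, n = 5 and 4, log2 ratio -2.27). RBMS2 passed the minimum of reads only through wild-type, and among genes that passed in both groups the lowest ratio was -1.29. The highest of the 25 was that of NDUFA4L2, a relative of a mitochondrial respiratory subunit (4.84 ± 2.28 and 7.001 ± 3.10, log2 ratio 0.56). Without overlap, 6 of the 25 lay below wild-type, beside 10.1% of all genes. In this flank 6 genes were called lower and none higher, beside 12.9% and 10.9% of all genes. Of its 18 genes that passed in both groups, 3 lay below wild-type without overlap and 3 were called lower. Among all 7394 such genes the shares were 8.24% and 11.4%.

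The 25 measured genes after the segment, from LEMD3 to KRR1, had a median log2 ratio of -0.55 and 21 negative ratios. TMEM19, a membrane protein gene, had the lowest of them at -4.38, with 50.4, 24.5, 32.7, 27.1 and 19.3 RPM in wild-type and 6.28, 3.30, 0 and 1.85 in R749H. It was lower than any gene of the segment, but TMEM19 passed the minimum of reads only through wild-type. Among genes that passed in both groups, the lowest ratio was -1.30 in this flank and -2.01 in the segment. RAP1B, a small GTPase gene, had the highest at 0.33 (64.1 ± 16.2 and 81.4 ± 21.8, SD, n = 5 and 4). In this flank 4 genes lay below wild-type without overlap, beside 10.1% of all genes. Called lower were 8 and called higher none, beside 12.9% and 10.9% of all genes. Of its 18 genes that passed in both groups, 2 lay below wild-type without overlap and 5 were called lower. Among all 7394 such genes the shares were 8.24% and 11.4%.

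Consecutive blocks of 25 measured genes were then followed away from the segment. On the side before it, the next 3 blocks beyond the flank had median log2 ratios of -0.02, -0.36 and -0.34 and reached 6.55 Mb from the edge. On the other side the medians were -0.14, -0.51 and -0.19, out to 45.1 Mb. All 8 blocks, the flanks included, were above the -0.87 of the segment, and 7 of them were below the -0.07 of all genes. With only genes that passed the minimum in both groups, the segment stood at -0.50, the flanks at -0.26 before and -0.36 after, and the farther blocks at 0.20, -0.13 and -0.20 before and -0.12, -0.29 and -0.13 after. The segment was thus less far from its surroundings on that basis. The block from SNRPF to SLC41A2, more than 30 Mb away, had 6 genes called lower and none higher, beside 12.9% and 10.9% of all genes. Of its 17 genes that passed in both groups, 4 were called lower, beside 11.4% of all such genes. The boundaries came from these same measured levels, and the difference between the segment and its surroundings was not tested.

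**Figure D5:**
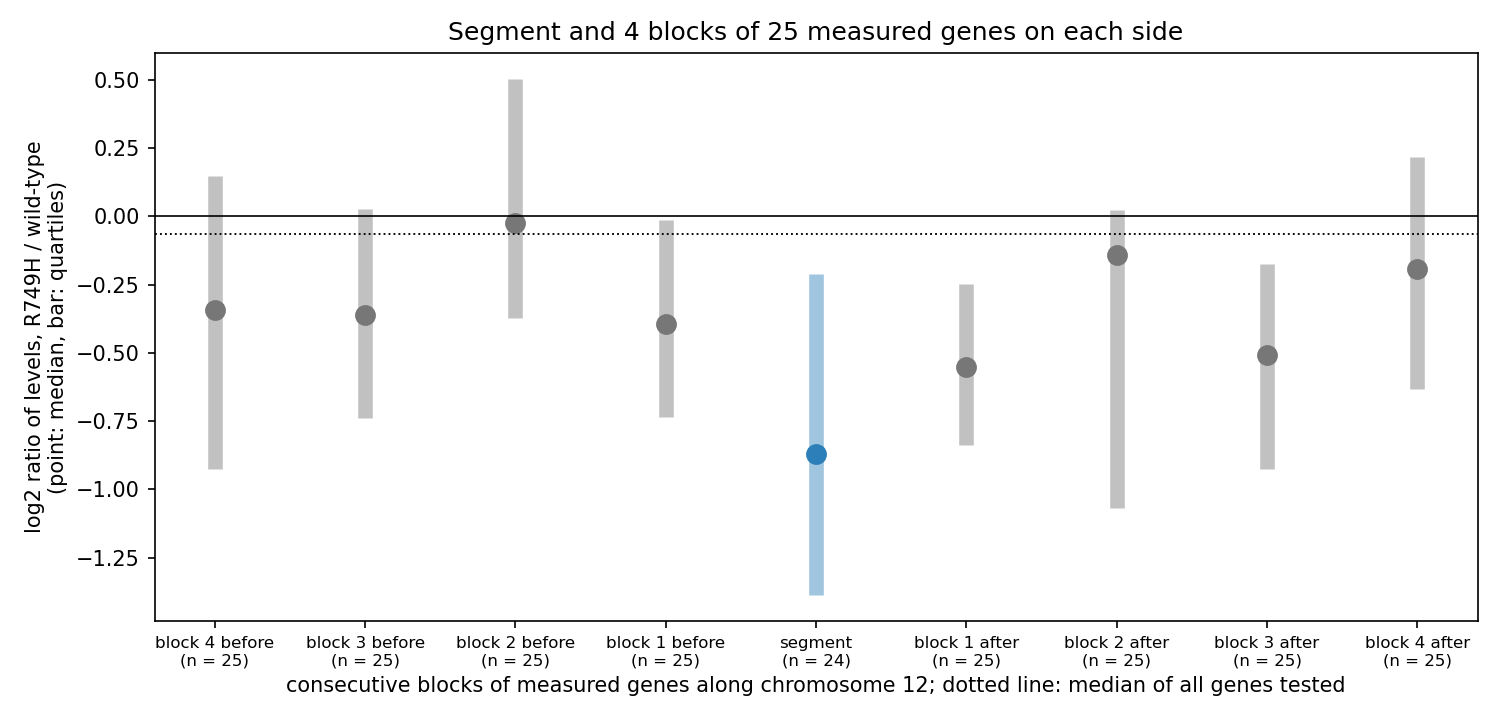
Median log2 ratio of R749H to wild-type levels (points) with quartiles (bars) for the segment (blue) and 4 consecutive blocks of 25 measured genes on each side (grey); the dotted line is the median of all genes tested. The segment median is -0.87, and the blocks run from -0.55 to -0.02 with quartile ranges that overlap that of the segment.

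The same reads were then split by end point, which restates the contrast that chose the segment. Averaged over the 9 libraries, 44 of the 571 end points in the segment reached 10 reads, and 35 of these had a lower mean in R749H. For 18 of the 44 all R749H libraries lay below all wild-type libraries, where 6.69% of the 20859 such ends of all genes did. None of the 44 lay entirely above, as 8.92% of all such ends did. The median log2 ratio over the 44 ends was -0.87, against 0.04 over all ends.

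Within genes, the choice of the end point was compared by the share of reads downstream of the gene’s median end point, with all libraries pooled. Where that end point was the gene’s last, its own reads counted as downstream. This could be fitted for 19 segment genes, and none was called at an adjusted p under 0.05 by limma, beside 0.0381% (3 of 7872) of all genes. None reached an unadjusted p under 0.05 either, as 9.44% of all genes did. Without R749H replicate 1, 4 of 20 segment genes reached it, without R749H replicate 3 it was 3 of 20, and without both it was 6 of 20. Leaving out wild-type replicate 2, 3, 4 or 5 gave 1 gene each, and none was called after adjustment in any of these fits. The share of all genes at an unadjusted p under 0.05 is not given for these limma fits. Nothing is therefore read from their counts. The log2 odds ran from -1.46 in ARHGEF25 to 0.26 in MON2, and 16 of the 19 were negative, that is, toward upstream ends in R749H, as were 57.6% of all genes. Where few reads lay downstream, the sign did not always follow the mean share. OS9 was at -0.11 with a mean downstream share of 0.80% in both groups. SLC26A10 was at 0.14, though its mean share was 8.77% in wild-type and 6.70% in R749H. For this share the groups overlapped in all 19 genes.

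The members differed widely in how many ends they used. OS9 was nearly all 1 isoform, 646 nt downstream of the stop codon, with 98.8% ± 0.26 of its reads in wild-type (SD, n = 5) and 98.6% ± 0.52 in R749H (SD, n = 4). DTX3 ended mainly at 650 nt (42.9% ± 5.60 and 41.3% ± 8.26) with a cluster of ends a few nucleotides upstream. TBC1D30 used ends at 244 and 246 nt, with 50.9% ± 3.64 and 50.4% ± 12.8 at the first. In these 3 genes the main end took nearly the same share in both groups although the levels of DTX3 and TBC1D30 differed.

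CDK4 was spread over a cluster whose main end, at 274 nt, took 27.1% ± 4.11 of its reads in wild-type (SD, n = 5) and 36.2% ± 5.36 in R749H (SD, n = 4). The shares of this end ran from 22.2% to 31.4% and from 32.1% to 43.9%, so that they were narrowly apart, which was not tested. XPOT used 2 clusters far apart, with main ends at 550 nt (35.4% ± 4.78 and 40.5% ± 7.84) and 2992 nt (26.0% ± 3.64 and 16.6% ± 12.2). The distal end of XPOT varied most among the R749H libraries, which held few XPOT reads. TMEM5 ended 11 nt after its stop codon in 40.4% ± 11.7 and 51.7% ± 9.47 of reads, with a second cluster near 465 nt. In XPOT and TMEM5 the groups overlapped for the main end, and none of the 3 genes was called for its downstream share.

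Genes elsewhere that work with segment genes were listed by role, and 21 of 26 could be tested. Of the 21, 2 were called lower (limma adjusted p under 0.05) and 3 higher, beside 12.9% and 10.9% of all genes. The 3 higher ones belong to the CDK4 pathway. CDKN1A, the p21 inhibitor of cyclin-dependent kinases, had 64.8, 94.2, 74.6, 97.0 and 152 RPM in wild-type and 285, 420, 428 and 574 in R749H. Its groups did not overlap (log2 ratio 2.16, SE 0.24). CDKN2B, the p15 inhibitor of CDK4, stood at 11.5 ± 2.60 and 32.4 ± 8.20 (SD, n = 5 and 4, log2 ratio 1.48), and CCND1, a D-type cyclin that activates CDK4, at 73.7 ± 31.3 and 118 ± 23.8 (log2 ratio 0.75).

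The 2 lower ones were partners of TBK1 and XPOT. IKBKE, the kinase most similar to TBK1, ran from 1.67 to 2.45 RPM in wild-type and from 0 to 0.80 in R749H, without overlap. It passed the minimum of reads only through the wild-type libraries, which favoured a lower level in R749H. RAN, the GTPase whose GTP-bound form binds XPOT in its complex with tRNA, stood at 57.3 ± 16.8 and 35.4 ± 5.54 (SD, n = 5 and 4, log2 ratio -0.66). WDR4, the partner subunit of METTL1, TUFM, the partner of TSFM, SEL1L and ERLEC1, which work with OS9, and DOPEY2, which works with MON2, were not called. The list of the CDK4 pathway had a median log2 ratio of 0.51 over 9 tested genes, whereas CDK4 itself was at 0.14.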

How the data were processed

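Poly(A) RNA of 5 wild-type and 4 R749H samples had been sequenced by 3’ READS. Per the methods and the labels, the authors mapped reads to hg19. The mapping program is bowtie in the methods and Bowtie2 2.3.2 in the processing notes. The authors gave each end to the closest gene whose stop codon lay within 5000 nt upstream and scaled each replicate. The deposited read counts are therefore a signal: reads multiplied by 1 factor per library. Whole reads were recovered by dividing by the smallest step (100% of values came out whole within a tolerance of 0.1) and summed per gene. Pooled tables and 4 eNETseq samples were not used here.

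The main test was limma 3.58.1 on log2 RPM (TMM factors and filterByExpr of edgeR 4.0.16, that is, at least 1.89 RPM in 4 libraries; prior count 0.5), R749H against wild-type, adjusted over all 9495 genes. edgeR and DESeq2 1.42.0 were alternatives. Reads downstream of the gene’s pooled median end point were tested by limma on log2 odds for genes with a mean of at least 20 reads. The scripts were tested on simulated data. The replicates are called biological in the methods, and p-values measure the spread between these libraries. The most similar pair of libraries within a group still differed by more than counting noise (chi-square per degree of freedom 3.76), so all 9 were kept. Members and gene lists were chosen with earlier results of these data known. Genes named with all values were the 15 with most reads and those next to the edges, and of each flank the highest and lowest ratio. A gene of the segment is not reported here by name, though it is included in the counts and medians.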

Additional observations from a re-analysis of the deposited data

Results flagged for a closer look

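Of 50 groups of 4 or 5 libraries examined for a library far from the rest (24 tested genes and the segment share, in each group), 4 were marked by Dixon’s ratio, and chance marks about 1 in 20. OS9 in R749H replicate 1 was at 451 RPM, while the other 3 R749H libraries lay between 266 and 270. XPOT in wild-type replicate 1 was at 80.2, against 17.2 to 27.6 in the other 4. ARHGEF25 in wild-type replicate 1 was at 11.5, against 17.8 to 19.8. MON2 in wild-type replicate 5 was at 8.94, against 11.2 to 12.1.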

How the results depend on the processing

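The counts and medians of the segment kept their direction under every alternative run. Scaling by library totals alone moved the median of all genes from -0.07 to -0.38 and the calls from 1228 lower and 1037 higher to 2486 and 457. The segment median was then -1.18 and those of the flanks -0.71 before and -0.87 after, so that relative to all genes the segment stood about as low as before. The segment genes called lower numbered 10, and 9 (no filter) to 14 (DESeq2 and library totals) under the other settings and 8 to 11 when 1 library was left out. The fit with a replicate block, for which wild-type replicate 5 was dropped, called 9. Same-numbered libraries did not deviate together (correlations of -0.07 to 0.05), so the numbers do not pair them. Leaving out each library gave a log2 ratio of the segment share of -0.89 to -0.67 (-0.75 with all), 9 to 11 genes without overlap, a segment median of -0.91 to -0.72 and medians of -0.42 to -0.30 before and -0.71 to -0.36 after. Leaving out R749H replicates 1 and 3 together, an alternative chosen after seeing the data, gave 12 genes without overlap, 10 called lower and a median of -0.17 before the segment; the cause was not tested. With only genes that passed the minimum of reads in at least 4 libraries of each group, also chosen after seeing the data, the segment median was -0.50, with 7 genes without overlap and 8 called lower, and the flank medians were -0.26 and -0.36. No segment gene was called for a shift of its ends under any alternative. With no filter, SLC16A7 (11 reads in all) was called higher; it is named for this call. The signs of CDK4, METTL21B, TMEM5, TSPAN31 and USP15 changed under at least 1 alternative, and no called gene changed its sign. Depth limits the 7 untested genes.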
